A study of Mus musculus with 10 samples.

Results

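The transcription factor genes *Elf3*, *Elf5*, *Ehf*, *Grhl1*, *Grhl2*, *Grhl3*, *Ovol1* and *Tfap2b* were followed in mouse organoids of the ureteric bud (UB), in organoids of the collecting duct (CD) and in CD cells of adult mice (adult mCD). Members were chosen by gene symbol from the deposited table, and 8 of its 39273 genes were taken. All 8 passed the filter on low counts. The libraries were made by RNA-seq, with 2 in each of 5 groups.

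*Elf3*, *Elf5* and *Ehf* encode ETS family factors of epithelia, which bind DNA at a GGAA core. *Grhl1*, *Grhl2* and *Grhl3* encode grainyhead-like factors, which bind as dimers and are known for holding epithelial cells together and for the skin barrier, and in the kidney *Grhl2* is known for the tightness of the CD epithelium. *Ovol1* encodes a zinc finger factor that favours epithelial over mesenchymal genes, and *Tfap2b* encodes an AP-2 factor that is known in the kidney for the distal nephron and CD.

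The UB organoids were grown from UB of embryonic kidneys (E11.5 in the sample names of days 5 and 10, embryonic day 11 in the age labels) of Wnt11-RFP +/- mice on a C57BL/6 x Swiss Webster background. In these mice a red reporter marks *Wnt11*-expressing cells, those of the UB tip. They were sampled after 5, 10 and 20 days in the mouse UB culture medium, which holds FGF9, GDNF, R-spondin 1, TTNPB, CHIR99021, LDN193189, A83-01, SB202190 and JAK inhibitor I. CD organoids were UB organoids of day 10 that had been moved to a differentiation medium that held the hormones vasopressin and aldosterone beside FGF9, Y27632, PD0325901 and DAPT, where DAPT blocks Notch processing and PD0325901 blocks MEK. By the paper's methods, CD organoids had then spent longer in culture than day 10 UB organoids and less long than day 20 UB organoids. Adult mCD were cells sorted by Venus fluorescence from Hoxb7-Venus mice at an age of 2 months, in which the *Hoxb7* promoter drives the reporter in the UB lineage. The names of the adult mCD libraries also call them organoids, and their age and genotype labels repeat those of the organoids, whereas the account of sorted adult cells is the one in the series' design. The study states that experiments were repeated independently and that RNA-seq was run at least in duplicate, but the sources do not tie the 2 libraries of a group to separate cultures or animals, so the p-values below measure the spread between these libraries, which may be technical.

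Total counts ran from 11913613 to 24536676 per library, so that 3 counts, taken as the limit of detection, equalled between 0.122 and 0.252 CPM (counts scaled to a common library size) before scaling. This limit covers counting error only. Some libraries stood apart before any comparison. The 4 libraries of days 5 and 10 were the deepest and held 0.0408 to 0.978 CPM of 4 Y-linked genes together, against 204.5 to 309 CPM in the other 6 libraries. Day 20 against day 10 and CD organoids against day 10 cross this divide, whereas CD organoids against day 20 do not. Mitochondrial genes took 0.969% to 3.40% of counts in organoids and 9.64% and 9.86% in adult mCD. The labels were checked on marker lists. The UB tip list (6 genes, among them *Ret* and *Wnt11*) summed to between 2158 and 3788 CPM in the 6 UB organoid libraries and to at most 130.4 CPM elsewhere. The intercalated cell list (9 genes) summed to 1946 and 2035 CPM in CD organoids and to at most 7.27 CPM in UB organoids. The vasopressin receptor gene *Avpr2*, a principal cell marker, had 0 to 4 counts in every library.

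The adult mCD libraries also held transcripts of other kidney cells. The proximal tubule list (8 genes) summed to 5357 and 6508 CPM in them, against at most 35.3 CPM in any organoid library, and the loop of Henle list (4 genes) to 4287 and 4461 CPM, against at most 7.78 CPM. The endothelial list (6 genes) summed to 718 and 729.9 CPM, against at most 3.11 CPM, and the urothelial list (7 genes) to 78.8 and 90.8 CPM, against at most 9.26 CPM. The leukocyte list (6 genes) summed to 54.8 and 55.8 CPM, against 46.1 and 52.2 CPM in CD organoids and at most 13.9 CPM in UB organoids. In CD organoids only 2 of its genes had over 3 counts, and most of the sum was *Ptprc* (43.72 and 37.36 CPM). *Csf1r* was at 0.214 and 0 CPM there and at 26.15 and 30.02 CPM in adult mCD. These values apply to every comparison with adult mCD below, and their part in those results was not tested. In bulk libraries, fewer cells that express a gene and less of its RNA per cell cannot be told apart.

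Because CD organoids exceeded day 20 UB organoids in both *Elf3* and *Elf5*, the sequences before their RefSeq gene starts are shown (GRCm38.p6, 250 bases each, in the direction of the gene). Capitals mark the ETS core, GGAA, on either strand, where TTCC is the core on the other strand. *Elf3* lies on the minus strand, and its sequence is chr1:135258473-135258722. *Elf5* has a pair of starts on the plus strand, with the sequences chr2:103411848-103412097 and chr2:103423818-103424067.
Elf3: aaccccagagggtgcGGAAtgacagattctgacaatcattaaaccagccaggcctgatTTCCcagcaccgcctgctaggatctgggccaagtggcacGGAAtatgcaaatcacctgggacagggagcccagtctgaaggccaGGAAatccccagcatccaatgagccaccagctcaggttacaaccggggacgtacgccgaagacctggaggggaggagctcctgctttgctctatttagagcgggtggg
Elf5, first start: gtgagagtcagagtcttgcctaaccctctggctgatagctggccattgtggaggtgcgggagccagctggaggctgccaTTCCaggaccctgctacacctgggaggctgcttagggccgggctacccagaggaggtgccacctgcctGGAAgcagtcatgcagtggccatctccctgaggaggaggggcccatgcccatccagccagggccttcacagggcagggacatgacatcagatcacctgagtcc
Elf5, second start: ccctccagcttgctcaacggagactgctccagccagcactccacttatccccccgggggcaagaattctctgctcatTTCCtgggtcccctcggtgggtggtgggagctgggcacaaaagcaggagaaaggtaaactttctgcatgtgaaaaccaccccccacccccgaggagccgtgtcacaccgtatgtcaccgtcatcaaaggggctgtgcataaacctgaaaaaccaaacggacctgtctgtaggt
The *Elf3* sequence held 4 cores, the first *Elf5* sequence 2 and the second 1. Of 32851 RefSeq promoter sequences of this length, 93.4% held at least 1 core, so a core does not set these genes apart. Neither the grainyhead letters AACCNGGTT (0.24% of promoters, both strands searched) nor the AP-2 letters GCCNNNGGC (13.7%) were found in the 3 sequences. The search for GCCNNNGGC found 1 match among the remaining sequences of members, which covered *Grhl1*, *Grhl3* and *Tfap2b*, in the sequence before a start of *Grhl1*, 82 bases before it.

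Genes were compared by the quasi-likelihood test of edgeR on the counts of all 24410 genes with at least 10 counts in total, and a call needed both a Benjamini-Hochberg adjusted p no higher than 0.01 and a fold change above 4, or 2 on the log2 scale. CPM are scaled with TMM factors, which adjust for the composition of a library. To compare levels between genes, CPM were divided by the merged exon length in kb. The standard error (SE) of a log2 fold change is approximate, as it was derived from the test statistic.

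*Elf3* (ENSMUSG00000003051, chromosome 1, 135253575 to 135258568 on the minus strand of GRCm38) encodes an ETS factor of differentiating epithelia and was by group mean the most abundant of the 8 per kb in every group except day 20. Its level was 191 and 218 CPM at day 5, 159 and 89.6 CPM at day 10, 22.1 and 29.9 CPM at day 20, 419.6 and 441 CPM in CD organoids and 467 and 405 CPM in adult mCD. Group means were lower at each later day of UB culture and highest in CD organoids and adult mCD, whose libraries overlapped, while no other groups did. The difference from day 5 to day 10 was -0.72 (log2, SE 0.20, adjusted p = 0.0127) and was not called. *Elf3* fell by 2.26 on the log2 scale from day 10 to day 20 (SE 0.22, adjusted p = 6.6e-06). This call rests on the first library of day 10, without which the log2 fold change was -1.76, under 4-fold.

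Against day 20, *Elf3* rose in CD organoids by 4.05 on the log2 scale (SE 0.23, adjusted p = 7.25e-09). Against day 10, the culture stage at which CD differentiation starts, though the day 10 libraries differ from those of CD organoids in Y-linked genes and depth as given above, the difference of 1.79 (SE 0.20, adjusted p = 4.86e-06) stayed under 4-fold, and without the first library of day 10 it was 2.28 and called. CD organoids and adult mCD differed by -0.02 with an SE of 0.20 (adjusted p = 0.99). *Elf3* rose in adult mCD against day 20 by 4.07 (SE 0.23, adjusted p = 2.71e-09). With library totals in place of TMM factors, which moves the median of all genes in this comparison from 0.00 to 0.34, the difference between CD organoids and adult mCD was 0.38.

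*Elf5* (ENSMUSG00000027186, chromosome 2, 103411688 to 103450989, plus strand) encodes an ETS factor known from the alveolar cells of the mammary gland and, in the kidney, from principal cells. It measured 4.83 and 5.75 CPM at day 5, 20.1 and 19.3 CPM at day 10, 5.28 and 8.06 CPM at day 20, 59.0 and 52.6 CPM in CD organoids and 77.0 and 75.2 CPM in adult mCD. Day 10 was above the other UB days, days 5 and 20 overlapped, and with TMM factors CD organoids lay between day 10 and adult mCD. *Elf5* rose in CD organoids against day 20 by 3.06 (log2, SE 0.15, adjusted p = 2.28e-09) and was 1.503 above day 10 (SE 0.13, adjusted p = 4.09e-07), which is under 4-fold. The step from day 5 to day 10 was 1.88 (SE 0.15, adjusted p = 1.16e-06), just under 4-fold, and passed the threshold at 2.02 without the second library of day 5. From day 10 to day 20 the difference was -1.56 (SE 0.16, adjusted p = 8e-06).

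CD organoids differed from adult mCD in *Elf5* by -0.45 on the log2 scale (SE 0.13, adjusted p = 0.00966), which is under 4-fold. This difference ranged from -0.532 to -0.052 over all alternatives, and from -0.532 to -0.379 with 1 library left out. Its size, and the place of CD organoids below adult mCD, therefore depend on the processing. *Elf5* rose in adult mCD against day 20 by 3.51 (SE 0.15, adjusted p = 2.04e-10). Beside this, the principal cell list (9 genes, among them *Aqp2* and *Scnn1b*) summed to between 114 and 231 CPM in UB organoids, to 1499 and 1658 CPM in CD organoids and to 12420 and 12960 CPM in adult mCD, and 6 of its genes passed the threshold as lower in the CD organoids when compared with adult mCD, as did 9.84% of all genes. Its part in the levels of *Elf5* was not tested.

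*Ehf* (ENSMUSG00000012350, chromosome 2, 103263433 to 103303278, minus strand) encodes another epithelial ETS factor, and 108409 bases separate it from *Elf5*. It measured 9.23 and 18.8 CPM at day 5, 225 and 253.8 CPM at day 10, 253.5 and 255 CPM at day 20, 562 and 555 CPM in CD organoids and 491.5 and 455 CPM in adult mCD. The rise came between days 5 and 10, days 10 and 20 overlapped, and both CD groups were above all UB libraries. *Ehf* rose from day 5 to day 10 by 4.08 (log2, SE 0.21, adjusted p = 4.52e-08), or by 4.69 without the second library of day 5. CD organoids were 1.22 above day 10 (SE 0.18, adjusted p = 6.45e-05) and 1.14 above day 20 (SE 0.18, adjusted p = 1.47e-04), both under 4-fold. Their difference from adult mCD was 0.24 (SE 0.18, adjusted p = 0.293). *Ehf* differed by 0.09 between days 20 and 10 (SE 0.18, adjusted p = 0.765) and by 0.895 between adult mCD and day 20 (SE 0.18, adjusted p = 7.02e-04), neither of them called.

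The 3 ETS genes therefore did not keep their proportions. Summed per kb, they reached 88.7 and 103 CPM per kb at day 5, 115 and 89.2 at day 10, 56.3 and 60.6 at day 20, 300.2 and 308 in CD organoids and 312 and 277 in adult mCD. *Elf3* made up 97.2% and 95.8% of this sum at day 5 and 62.1% and 45.3% at day 10. By day 20 its share was 17.7% and 22.3%. *Ehf* went the other way, from 1.87% and 3.28% at day 5 to 80.7% and 75.5% at day 20. In CD organoids *Elf3* held 63.1% and 64.7% and *Ehf* 33.6% and 32.4%. In adult mCD these shares were 67.5% and 66.0% for *Elf3* and 28.3% and 29.4% for *Ehf*. *Elf5* was the smallest of the 3 in every library, with 0.926% to 4.62% of the sum.

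**Figure D1:**
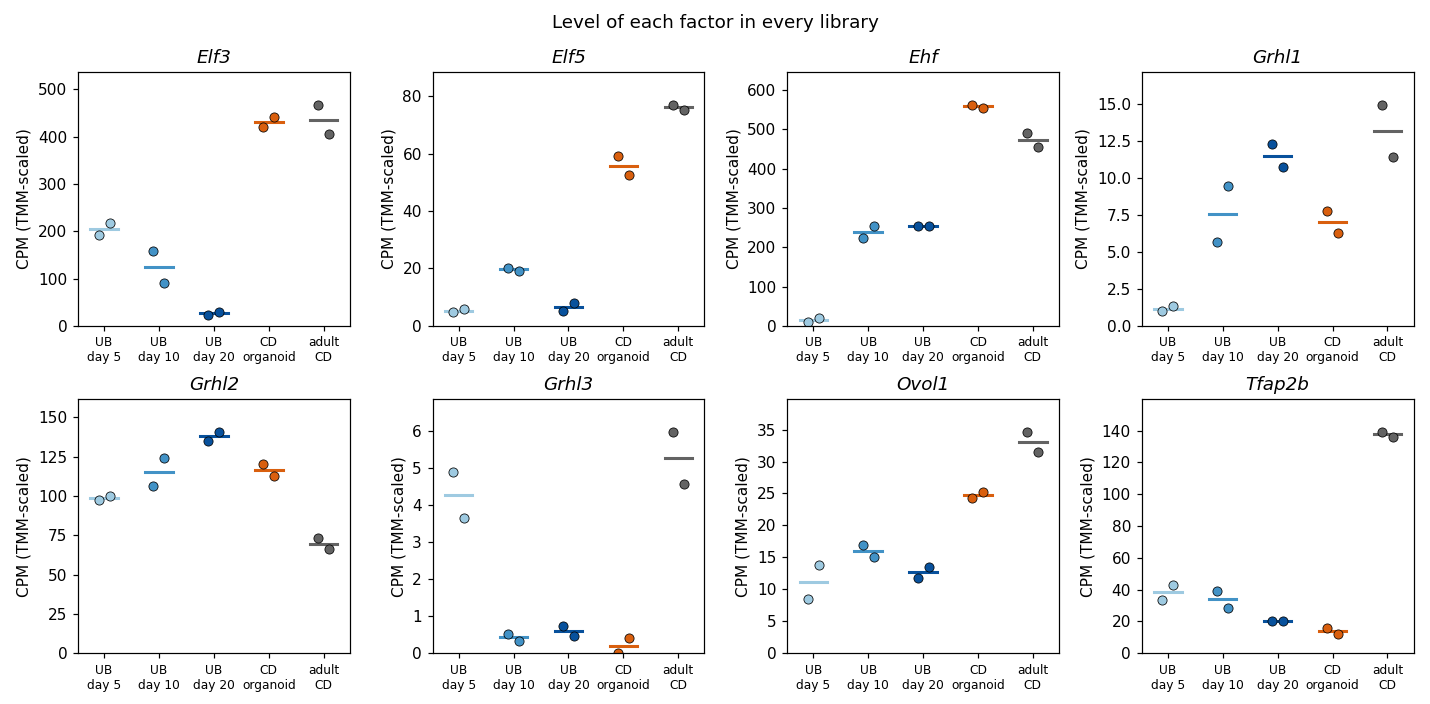
Level of each of the 8 genes in CPM with TMM factors (vertical axis, linear from 0, a scale of its own in each panel) in the 5 groups (horizontal axis). Points are libraries and bars the mean of 2. *Elf3* is lowest at day 20 (22.1 and 29.9 CPM), *Ehf* steps up between days 5 and 10, and *Tfap2b* stands apart in adult mCD (139 and 136 CPM).

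**Figure D2:**
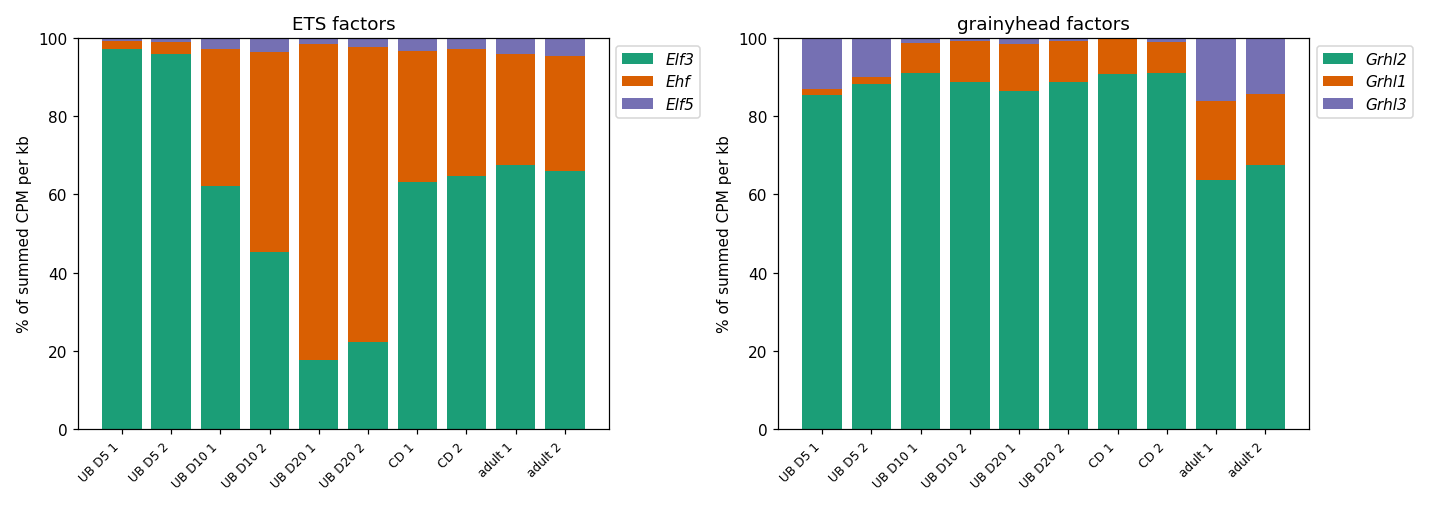
Share of each gene in the summed CPM per kb of its family (vertical axis, %) in each of the 10 libraries (horizontal axis), for the ETS genes on the left and the grainyhead-like genes on the right. *Elf3* gives way to *Ehf* over the UB culture, and *Grhl2* holds the largest part of its family in every library.

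*Grhl2* (ENSMUSG00000022286, chromosome 15, 37233036 to 37363569, plus strand), the grainyhead-like gene of simple epithelia, was the steadiest of the 8. It measured 97.4 and 100.2 CPM at day 5, 107 and 125 CPM at day 10, 135 and 141 CPM at day 20, 120.1 and 113 CPM in CD organoids and 73.0 and 66.1 CPM in adult mCD. Day 20 was the highest and adult mCD the lowest, with no overlap with a neighbour in the order, while CD organoids and day 10 overlapped. No difference of *Grhl2* reached 4-fold. The largest was between adult mCD and day 20, at -0.99 (log2, SE 0.09, adjusted p = 2.75e-07), followed by 0.74 between CD organoids and adult mCD (SE 0.09, adjusted p = 8e-06). CD organoids differed from day 10 by 0.01 (SE 0.09, adjusted p = 0.95), a value whose sign turned under other scalings. The remaining differences of *Grhl2* were 0.23 from day 5 to day 10 (adjusted p = 0.0538), 0.25 from day 10 to day 20 (adjusted p = 0.0367) and -0.245 in CD organoids against day 20 (adjusted p = 0.0327).

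*Grhl1* (ENSMUSG00000020656, chromosome 12, 24572283 to 24617391, plus strand), known for desmosomal genes of the epidermis, measured 1.03 and 1.31 CPM at day 5, 5.67 and 9.48 CPM at day 10, 12.3 and 10.7 CPM at day 20, 7.76 and 6.25 CPM in CD organoids and 14.9 and 11.4 CPM in adult mCD. Day 5 was below all other libraries, day 10 overlapped with CD organoids, and day 20 overlapped with adult mCD. *Grhl1* rose from day 5 to day 10 by 2.65 (log2, SE 0.28, adjusted p = 1.12e-05). CD organoids were below adult mCD by 0.90 on the log2 scale (difference -0.90, SE 0.24, adjusted p = 0.00729), which is under 4-fold. Its other differences were not called, at 0.59 from day 10 to day 20 (adjusted p = 0.0718), -0.11 in CD organoids against day 10 (adjusted p = 0.742), -0.71 in CD organoids against day 20 (adjusted p = 0.0321) and 0.20 in adult mCD against day 20 (adjusted p = 0.502). The signs of the second and the fourth turned under alternatives.

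*Grhl3* (ENSMUSG00000037188, chromosome 4, 135541888 to 135573630, minus strand), known for closing the neural tube and for the skin and bladder barriers, was found mainly at the ends of the series. It had 114 and 89 reads counted at day 5, 13 and 9 reads at day 10, 12 and 7 reads at day 20, 0 and 5 reads in CD organoids and 79 and 58 reads in adult mCD. In CPM these were 4.87 and 3.63, 0.515 and 0.328, 0.728 and 0.463, 0 and 0.401, and 5.95 and 4.56. Day 5 overlapped with adult mCD, and the libraries between them were near the limit of detection, the 0 allowing up to 0.221 CPM before scaling. *Grhl3* fell from day 5 to day 10 by 3.18 (log2, SE 0.43, adjusted p = 7.71e-05), a call that limma on the deposited TMM values did not make (-3.09, adjusted p = 0.0163). CD organoids lay below adult mCD, with a log2 fold change of -4.45 (SE 0.55, adjusted p = 1.3e-05), which became -6.68 without the second library of CD organoids, when only the library at 0 was left. Adult mCD were above day 20 by 3.02 (SE 0.45, adjusted p = 5.17e-05), which limma did not call either (2.61, adjusted p = 0.0178). CD organoids and day 20 differed by -1.42 (SE 0.70, adjusted p = 0.128), and by -3.65 (adjusted p = 0.00809) without the second library of CD organoids. Differences among the groups near the limit of detection were 0.47 from day 10 to day 20 (SE 0.54, adjusted p = 0.566) and -0.96 in CD organoids against day 10 (SE 0.69, adjusted p = 0.275).

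Values of the urothelial list stand beside those of *Grhl3*. The list summed to 9.14 and 9.26 CPM at day 5, 2.81 and 2.66 CPM at day 10, 1.94 and 1.92 CPM at day 20, 5.63 and 5.69 CPM in CD organoids and 90.8 and 78.8 CPM in adult mCD, where all 7 of its genes had over 3 counts. Of these, *Upk1a* made up most of the day 5 sum (6.62 and 6.78 CPM). *Upk2*, a defining uroplakin gene, was at 0 in all UB organoid libraries. The list's part in the differences of *Grhl3* was not tested.

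Over the grainyhead-like genes, the sum per kb stayed between 11.4 and 18.4 CPM per kb in all libraries. *Grhl2* held 85.4% to 91.1% of it in organoids and 63.7% and 67.5% in adult mCD. *Grhl3* held 13.2% and 9.89% at day 5, at most 1.44% from day 10 through CD organoids, and 16.0% and 14.4% in adult mCD.

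*Ovol1* (ENSMUSG00000024922, chromosome 19, 5549136 to 5560646, minus strand) measured 8.46 and 13.8 CPM at day 5, 17.0 and 15.0 CPM at day 10, 11.8 and 13.5 CPM at day 20, 24.3 and 25.3 CPM in CD organoids and 34.6 and 31.4 CPM in adult mCD. With TMM factors, CD organoids were above every UB library and below both adult mCD libraries, and days 5 and 20 overlapped. None of its differences reached 4-fold. CD organoids were 0.63 above day 10 (log2, SE 0.18, adjusted p = 0.00897) and 0.97 above day 20 (SE 0.18, adjusted p = 6.57e-04), and adult mCD were 1.38 above day 20 (SE 0.18, adjusted p = 1.58e-05). *Ovol1* differed by 0.52 from day 5 to day 10 (adjusted p = 0.0388), by -0.34 from day 10 to day 20 (adjusted p = 0.189) and by -0.41 between CD organoids and adult mCD (adjusted p = 0.0666). The last of these ranged from -0.495 to -0.019 over all alternatives, and from -0.495 to -0.314 with 1 library left out. The place of CD organoids below adult mCD in *Ovol1* therefore depends on the processing.

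*Tfap2b* (ENSMUSG00000025927, chromosome 1, 19208914 to 19238576, plus strand) measured 33.6 and 42.9 CPM at day 5, 39.2 and 28.3 CPM at day 10, 20.4 and 20.3 CPM at day 20, 15.9 and 12.2 CPM in CD organoids and 139 and 136 CPM in adult mCD. Days 5 and 10 overlapped, CD organoids were the lowest group, and adult mCD were far above the rest. *Tfap2b* was lower in CD organoids when set against adult mCD, with a log2 fold change of -3.28 (SE 0.17, adjusted p = 1.8e-09), and rose by 2.76 in adult mCD against day 20 (SE 0.16, adjusted p = 3.31e-09). Against day 10, CD organoids were at -1.26 (SE 0.17, adjusted p = 2.51e-05), under 4-fold. Its other differences were not called, at -0.18 from day 5 to day 10 (adjusted p = 0.388), a sign that turned with 1 library left out, -0.73 from day 10 to day 20 (adjusted p = 0.00349) and -0.53 in CD organoids against day 20 (adjusted p = 0.0277).

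The distal convoluted tubule list (4 genes) stands beside *Tfap2b* in adult mCD. *Slc12a3*, the sodium-chloride cotransporter gene that defines this segment, averaged 416 CPM in adult mCD and at most 0.864 CPM in any organoid group, and *Pvalb* 52.1 CPM against at most 0.190 CPM. The list as a whole, which also holds *Calb1*, a gene of the connecting tubule and CD as well, summed to 1662 and 1790 CPM in adult mCD and to between 165.5 and 885 CPM in organoids, with all 4 genes over 3 counts only in the adult mCD libraries. Its part in the level of *Tfap2b* was not tested.

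Counted over the 8 genes, 2 were called higher at day 10 than at day 5 (*Ehf* and *Grhl1*) and 1 lower (*Grhl3*), where the share of all genes called was 2.34% in the higher and 1.07% in the lower direction. From day 10 to day 20, 0 were called higher and 1 lower (*Elf3*), against 1.66% and 1.73% of all genes. DESeq2 and limma (run on the deposited TMM values) also called 0 higher, and 2 genes were higher at an unadjusted p under 0.05. The share of all genes at this unadjusted threshold was not counted, here or below. The shares printed near such counts are those of calls and cannot be set against them.

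CD organoids against day 10 gave 0 calls in either direction with edgeR, DESeq2 and limma, against 4.96% and 5.71% of all genes called higher and lower. At an unadjusted p under 0.05, 4 of the 8 were higher and 1 lower. Already at an adjusted p no higher than 0.05, 22.1% of all genes were higher and 25.2% lower. Against day 20, CD organoids had 2 genes called higher (*Elf3* and *Elf5*) and 0 lower, against 4.74% and 4.73% of all genes. The 0 was the same with DESeq2 and limma, with 3 genes lower at an unadjusted p under 0.05. These comparisons share the CD organoid libraries, as those below share the adult mCD libraries.

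Against adult mCD, CD organoids had 0 of the 8 called higher and 2 lower (*Grhl3* and *Tfap2b*), against 4.5% and 9.84% of all genes. DESeq2 and limma also called 0 higher, and 1 gene was higher at an unadjusted p under 0.05. Adult mCD against day 20 gave 4 called higher (*Elf3*, *Elf5*, *Grhl3* and *Tfap2b*) and 0 lower, against 12.3% and 6.89% of all genes. DESeq2 called 4 higher and limma 3, without *Grhl3*, and both called 0 lower, with 1 gene lower at an unadjusted p under 0.05. The median log2 fold change of the 8 was 2.07 in this comparison, where that of all genes was -0.06, and lay between -0.43 and 0.37 in the other 5.

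When an adjusted p no higher than 0.05 sufficed, without a limit on the fold change, the background was far larger and the counts read differently. From day 5 to day 10, 4 of the 8 were higher and 2 lower, against 15.8% and 16.9% of all genes, and from day 10 to day 20, 1 was higher and 3 lower, against 13% and 16%. CD organoids had 4 higher and 1 lower against day 10, where 22.1% and 25.2% of all genes passed, and 4 higher and 3 lower against day 20, where 21% and 21.3% did. Against adult mCD, CD organoids had 1 higher (*Grhl2*) and 4 lower, with 23.8% and 26.1% of all genes. Adult mCD against day 20 had 6 higher and 1 lower (*Grhl2*), with 29.3% and 27.1%.

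**Figure D3:**
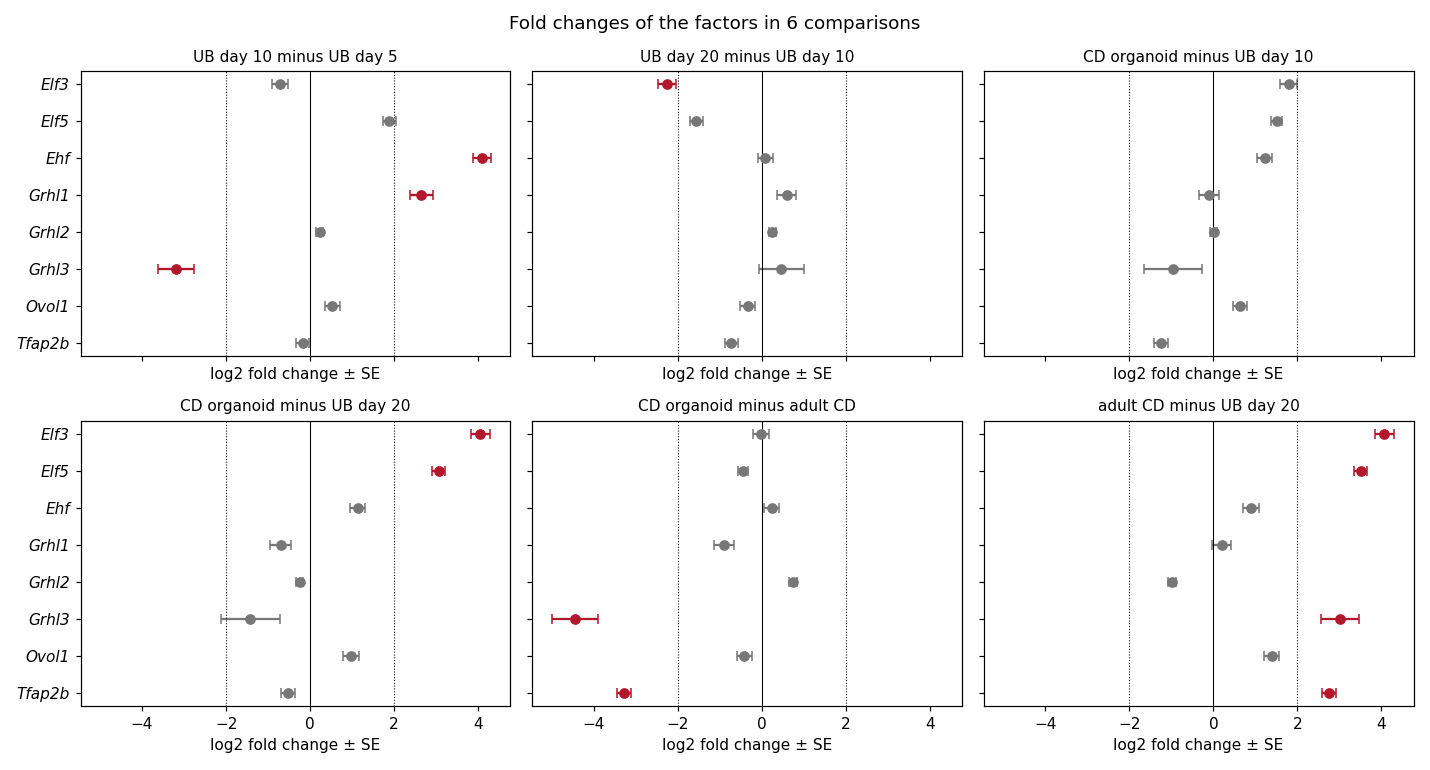
Log2 fold change of each gene (horizontal axis, bars are the SE) in 6 comparisons, the first group named minus the second. Red points were called, grey points were not, and dotted lines mark 4-fold. *Elf3* and *Elf5* are called in CD organoids against day 20 (4.05 and 3.06) but not against day 10 (1.79 and 1.503), and *Grhl3* has the widest SE.

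Relatives of the 8 genes gave a second view of the families. Of 13 listed relatives, 10 were tested. *Tfcp2l1*, a grainyhead superfamily member known as a factor of CD cells, was called higher in CD organoids than at day 10 (2456 against 236 CPM, log2 fold change 3.38, SE 0.18, adjusted p = 2.93e-09) and than at day 20 (4.71, SE 0.19, adjusted p = 3.73e-10). The AP-2 gene *Tfap2c* was the only one of the 10 called lower in CD organoids, at 0.570 CPM against 10.8 CPM at day 10 (-4.13, SE 0.42, adjusted p = 1.89e-06) and 2.495 CPM at day 20, and it was also called lower at day 20 than at day 10 (-2.09, SE 0.32, adjusted p = 2.82e-04). The ETS gene *Elf4*, at 20.2 CPM on day 5, 6.86 on day 10, 0.868 on day 20 and 21.3 in CD organoids, was called lower at day 20 than at day 10 (-2.92, SE 0.50, adjusted p = 7.14e-04) and higher in CD organoids than at day 20 (log2 fold change 4.55, SE 0.48, adjusted p = 3.02e-06). *Ovol2*, the relative of *Ovol1*, had group means between 2.44 and 8.41 CPM with no call. In adult mCD against day 20, 2 of the 10 were called higher (*Tfcp2l1* and *Elf4*) and 1 lower (*Tfap2c*), against 12.3% and 6.89% of all genes. There *Tfcp2l1* was at 3.81 (SE 0.19, adjusted p = 5.79e-10) and *Tfap2c* at 0.0786 against 2.495 CPM. Against adult mCD, CD organoids had *Spdef* called higher and 0 lower by edgeR, where 4.5% and 9.84% of all genes were called, with 2 lower at an unadjusted p under 0.05. *Spdef* had 11 and 7 counts in CD organoids and 1 and 0 in adult mCD, which is under the limit of detection.

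The epithelial junction and splicing list (11 genes, all tested) holds genes of epithelial adhesion and splicing, with *Cdh1* and *Cldn4* among the known targets of *Grhl2*. In CD organoids 1 gene was called higher and 1 lower, and these were the same genes against day 10 and against day 20. Of all genes, 4.96% were called higher and 5.71% lower against day 10, and 4.74% and 4.73% against day 20. *Esrp2*, an epithelial splicing regulator, was at 111 CPM against 20.6 CPM at day 10 (log2 fold change 2.42, SE 0.08, adjusted p = 5.62e-11), and *Prom2*, a membrane protrusion protein, at 8.44 against 116 CPM (-3.78, SE 0.10, adjusted p = 1.08e-11). Against day 20 the log2 fold changes were 2.55 (SE 0.09) for *Esrp2* and -3.80 (SE 0.11) for *Prom2*. Against day 10 the median over the list was 0.65, and that of all genes was -0.14. *Cdh1*, which encodes E-cadherin, averaged 742 CPM at day 10 and 2039 CPM in CD organoids (1.46, SE 0.09, adjusted p = 1.05e-08), under 4-fold. In adult mCD against day 20, *Cldn4*, a claudin of tight junctions, had the largest difference (3440 against 491 CPM, 2.81, SE 0.10, adjusted p = 3.58e-11), followed by *Prom2* (-2.42, SE 0.09).

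Of 9 mesenchymal genes, 1 was called higher and 3 lower in CD organoids than at day 10, and the same 4 genes were called the same way against day 20. The shares of all genes called higher and lower were 4.96% and 5.71% against day 10, and 4.74% and 4.73% against day 20. *Fn1*, the fibronectin gene, went from 684 to 83.0 CPM (log2 fold change -3.04, SE 0.26, adjusted p = 3.36e-07), *Twist1* from 121 to 15.0 CPM (-3.01, SE 0.13, adjusted p = 4.16e-10) and the N-cadherin gene *Cdh2* from 10.1 to 1.27 CPM (-2.93, SE 0.23, adjusted p = 1.61e-07). Against day 20 the largest differences were those of *Cdh2* (-3.66, SE 0.23) and *Fn1* (-2.94, SE 0.26). *Zeb1*, a repressor of epithelial genes, was higher, at 3.36 against 0.192 CPM (3.82, SE 0.60, adjusted p = 1.17e-04). The stromal list (7 genes) moved with it, at 25.4 and 19.8 CPM at day 10 and 280.4 and 148 CPM in CD organoids, and its part in the *Zeb1* difference was not tested. Against adult mCD, 1 of the 9 was called higher in CD organoids (*Twist1*) and 6 lower, against 4.5% and 9.84% of all genes. The largest differences were those of *Zeb2* (-4.55, SE 0.42) and *Vim* (-4.35, SE 0.24), beside the endothelial sums given above. In adult mCD against day 20, 4 were called higher and 2 lower, against 12.3% and 6.89% of all genes, with the largest differences in *Twist1* (-5.77, SE 0.18) and *Vim* (5.35, SE 0.26). From day 10 to day 20, *Snai2* was called higher, with 12 and 14 counts at day 20 against 0 and 4 at day 10, near the limit of detection.

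Barrier and squamous genes, which grainyhead-like and ETS factors are known to regulate in skin, were mostly low. Of 13 listed genes 10 were tested. From day 5 to day 10, 2.34% of all genes were called higher and 1.07% lower. Of the 10, 4 were called higher at day 10 than at day 5, with 0 called lower and 1 lower at an unadjusted p under 0.05. The largest of these differences were those of *Sprr1a*, a cornified envelope gene, and of the desmosomal gene *Dsc3* (1.65 against 0.0214 CPM). *Sprr1a* went from 0.248 CPM at day 5 to 11.3 at day 10, 0.193 at day 20, 73.5 in CD organoids and 59.3 in adult mCD. It was called in each step among organoids, by 5.22 (log2, SE 0.36) from day 5 to day 10, -5.54 (SE 0.42) from day 10 to day 20 and 2.69 (SE 0.20) in CD organoids against day 10. CD organoids against day 20 had 2 of the 10 called higher, *Sprr1a* (8.23, SE 0.36, from 2 and 4 counts at day 20) and *Krt4* (53 and 72 counts, against 2 and 2 at day 20), and 0 lower, with 1 lower at an unadjusted p under 0.05. Of all genes, 4.74% were called higher there and 4.73% lower. In CD organoids against day 10, 3 of the 10 were called higher (*Trp63*, *Sprr1a* and *Krt4*) and 1 lower, against 4.96% and 5.71% of all genes. The gene called lower was *Dsc3*, with 1 and 2 counts against 26 and 62. In adult mCD against day 20, 6 were called higher and 0 lower, where 12.3% and 6.89% of all genes were called (2 of the 10 were lower at an unadjusted p under 0.05). The largest fitted differences were in *Sprr1a* (7.93, SE 0.37) and *Krt5*, which had 138 and 124 counts in adult mCD and 0 in all UB organoid libraries. *Trp63*, the p63 gene of basal epithelial cells, was called higher at day 20 than at day 10 (37.8 against 3.22 CPM, 3.52, SE 0.18, adjusted p = 2.31e-08) and in CD organoids than at day 10 (25.2 CPM, 2.94, SE 0.18, adjusted p = 1.43e-08). Both comparisons cross the divide in Y-linked genes and depth. Against day 20, *Trp63* was lower in CD organoids, at -0.58 (SE 0.16, adjusted p = 0.00845), and not called. Against adult mCD, CD organoids had *Krt4* called higher and 5 genes lower (*Tgm1*, *Krt14*, *Sfn*, *Ivl* and *Krt5*), against 4.5% and 9.84% of all genes. Of the basal keratin genes, *Krt14* was at 0 in all 8 organoid libraries and averaged 5.49 CPM in adult mCD, and *Krt5* averaged 0.0802 CPM in CD organoids and 10.1 CPM in adult mCD. *Tgm1*, a crosslinking enzyme of the cornified envelope, was at 25.02 CPM in adult mCD and 0.298 CPM in CD organoids (-6.14, SE 0.41, adjusted p = 2.38e-08). The urothelial sums in adult mCD stand beside these values, and their part was not tested.

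**Figure D4:**
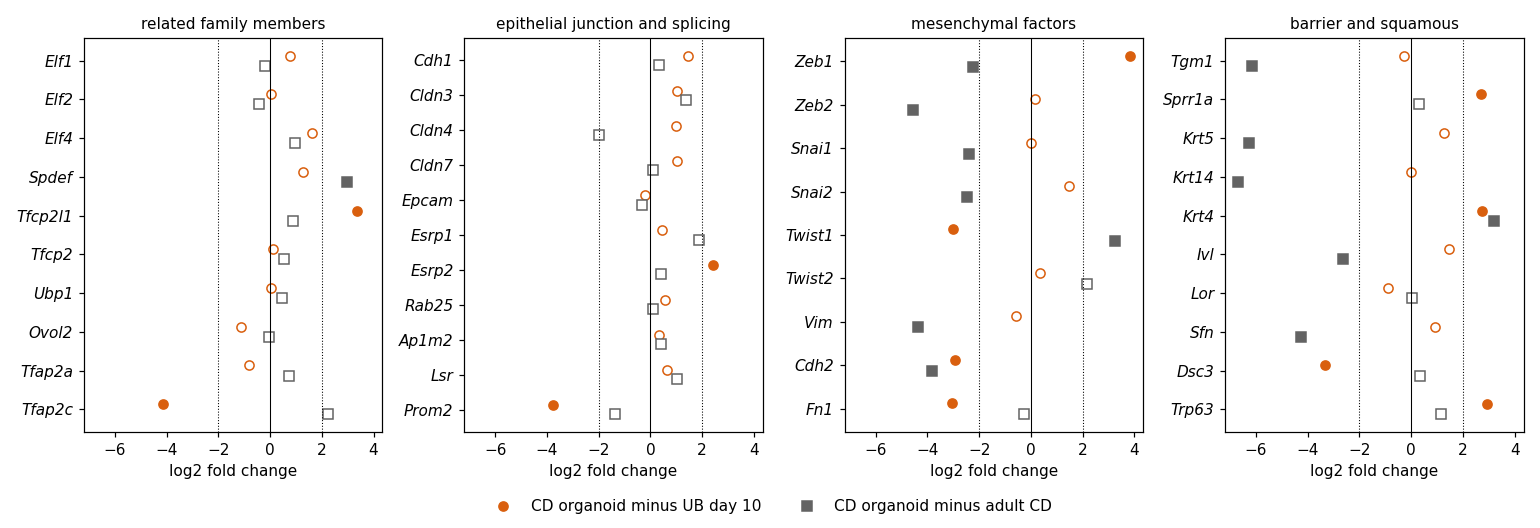
Log2 fold changes (horizontal axis) of the tested genes of 4 lists (vertical axes) in CD organoids minus day 10 (orange circles) and CD organoids minus adult mCD (grey squares). Filled symbols were called, open ones were not, and dotted lines mark 4-fold. *Tfcp2l1*, *Esrp2* and *Sprr1a* are called against day 10 but not against adult mCD. Values of genes at or near 0 in a group, such as *Krt14*, depend on the prior count.

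Genes whose pattern was most like that of each member were ranked by Pearson's r of log2(CPM + 1) over the 10 libraries among 11483 genes with a mean of at least 5 CPM. Symbols made of Gm and digits, or ending in Rik, had been left out of these. Replicates share a group, so these 10 points are mainly 5 group levels, and the r are given as a description. *Elf5* was closest to *Ptges*, the gene of a prostaglandin E synthase (r = 0.992), *Sprr1a* (0.980) and *Akr1b3*, the aldose reductase gene (0.980). *Elf3* was closest to *Clic1* (0.989), *Rbms1* (0.986) and *Txnip* (0.986), and *Ehf* to *Slc18b1* (0.986), *Ptgds* (0.982) and *Erc1* (0.981). For *Grhl1* these were *Maf* (0.985), *Sardh* (0.985) and *Natd1* (0.983), for *Grhl2* *Map2k4* (0.990), *Ireb2* (0.990) and *Cask* (0.989), and for *Grhl3* *Ifi30* (0.976), *Slc45a3* (0.976) and *Slc12a4* (0.970). *Ovol1* was closest to *Orai1* (0.980), *Wnk4* (0.978) and *Ampd3* (0.975), and *Tfap2b* to *Gas2* (0.989), *Ppt2* (0.987) and *Socs1* (0.984).

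Among the 8 themselves the highest r was 0.957, between *Elf5* and *Ovol1*, followed by 0.899 between *Ehf* and *Grhl1*. The lowest were -0.892 between *Grhl2* and *Tfap2b* and -0.816 between *Grhl2* and *Grhl3*. *Elf3* and *Ehf* had an r of 0.108.

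The order of the 8 genes per kb changed between groups. At day 5 *Elf3* led with 92.3 ± 8.64 CPM per kb (SD, n = 2), ahead of *Grhl2* at 11.47 ± 0.231 (SD, n = 2) and *Tfap2b* at 6.03 ± 1.03 (SD, n = 2). At day 10 *Elf3* (56.1 ± 22.2, SD, n = 2) led by mean over *Ehf* (42.9 ± 3.69, SD, n = 2), though in the second library *Ehf* was higher (45.5 against 40.4). At day 20 *Ehf* led with 45.6 ± 0.224 CPM per kb (SD, n = 2), ahead of *Grhl2* at 16.0 ± 0.436 (SD, n = 2) and *Elf3* at 11.7 ± 2.504 (SD, n = 2). In CD organoids *Elf3* (194 ± 6.97, SD, n = 2) and *Ehf* (100.2 ± 0.890, SD, n = 2) led again, with *Grhl2* at 13.5 and *Elf5* at 9.50 CPM per kb behind them. In adult mCD the order was *Elf3*, *Ehf*, *Tfap2b* (21.7 ± 0.301, SD, n = 2) and *Elf5* (12.9 ± 0.209, SD, n = 2).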

How the data were processed

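Per the labels and the methods of the paper, the authors trimmed the reads, aligned them to mm10 with STAR and counted GENCODE M24 genes with the E/M model of Partek, which divides multiply mapped reads among genes. The submitters' processing notes also name FastQC 0.11.8, cutadapt 2.5, Trimmomatic 0.36 and edgeR 3.28.1. The deposited table holds whole-number counts, RPKM values and a signal the authors call TMM values. For these the methods name an addition of 1 before TMM normalization, and in the file they summed to nearly the same total in each library (22328106 to 22333248). The deposited RPKM values were not used for levels, because the deposited gene length is the exon length summed over all transcripts for 98.3% of genes (within 1%). CPM per kb of merged GENCODE M21 exons were used instead. The labels name RNeasy and TruSeq kits, whereas the methods name Direct-zol and KAPA Stranded.

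Counts were tested with edgeR 4.0.16 in R 4.3.3 (TMM factors, prior count 1, all 10 libraries in one fit of group means). The thresholds are those the study's methods use for other samples. The spread was estimated largely across genes (common dispersion 0.00831, median prior degrees of freedom 7.9), since each group has only 2 libraries. On simulated data for CD organoids against day 10, 199 of 200 changed genes were recovered among 23580, with 0 false calls. The planted changes were all well above 4-fold and in genes above a minimum mean level, and every gene had the same dispersion. Unchanged genes had equal means in all groups, so with the 4-fold threshold few false calls could arise. Recovery of differences near or under 4-fold, such as that of *Elf3* here (3.46-fold), and of genes at lower levels or with more spread, was not tested. Alternatives used DESeq2 1.42.0, limma 3.58.1 on log2 of the deposited TMM values, other scalings, filters, prior counts and thresholds, a replicate block, and each library left out in turn. Tables and figures were made with Python 3.11.15, pandas 2.3.3, numpy 2.4.6 and matplotlib 3.10.9.

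The members, gene lists and rules were chosen with earlier results of these data known. All 8 members were given in each comparison, with up to 2 called genes of each list that differed most, as counts or CPM where a group was near 0, and the 3 genes most like each member. Other list genes named (*Cdh1*, *Ovol2*, *Tgm1*, in CD organoids against day 10 also *Sprr1a*, *Cdh2* and *Twist1*, and the marker genes given one by one) were chosen after their values were seen.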

Additional observations from a re-analysis of the deposited data

How the results depend on the processing

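Of 960 log2 fold changes of members under the alternatives, 913 kept their direction and their side of the threshold, as did 225 of 240 counts within 1.5 times. These totals include fits that left out a library of neither compared group, which bears on the comparison only through the shared spread and scaling. The looser threshold reuses the fold change of the main fit, so its direction could not turn. Limma on the deposited TMM values scaled much like library totals (median of all genes 0.357 and 0.345 in CD organoids against adult mCD). The totals therefore overstate how far the results were tested. With a looser threshold (adjusted p no higher than 0.05, no limit on the fold change), the counts called higher and lower became 4 and 2 from day 5 to day 10, 1 and 3 from day 10 to day 20, 4 and 1 for CD organoids against day 10, 4 and 3 against day 20, and 1 and 4 against adult mCD, and 1 was lower in adult mCD than at day 20. Limma called 0 lower from day 5 to day 10, as *Grhl3* had -3.09 with an adjusted p of 0.0163, and it no longer called *Grhl3* in adult mCD against day 20 (2.61, adjusted p = 0.0178). The cause of these changes with limma was not tested. With each library left out in turn, the count ranged from 0 to 1 for genes lower at day 20 than at day 10, for genes higher in CD organoids than at day 10 and for genes lower in CD organoids than at day 20. The libraries that decided these were the first of day 10 for *Elf3* and the second of CD organoids for *Grhl3*. Directions that turned were those of small differences. With 1 library left out, *Tfap2b* ranged from -0.44 to 0.02 from day 5 to day 10, *Grhl1* from -0.42 to 0.32 and *Grhl2* from -0.086 to 0.142 in CD organoids against day 10, *Elf3* from -0.13 to 0.12 in CD organoids against adult mCD, and *Grhl1* from -0.077 to 0.356 in adult mCD against day 20. *Grhl2* in CD organoids against day 10 was -0.028 with no filter on low counts, -0.085 with library totals and -0.080 with limma. With library totals and with limma, *Elf3* in CD organoids against adult mCD was 0.376 and 0.379, and *Grhl1* in adult mCD against day 20 was -0.260 and -0.269. *Elf5* passed the threshold from day 5 to day 10 with library totals (2.03) and limma (2.04). Scaling mattered most beside adult mCD. Of all genes called in CD organoids against adult mCD, 31.4% were higher with TMM factors, 44.4% with library totals and 45.7% with limma, and in adult mCD against day 20 64.1% were higher with TMM factors and 50.5% with library totals, while limma called 2653 higher and 2652 lower. The replicate numbers of the groups did not pair the libraries, with correlations between the groups' replicate differences of -0.055 to 0.139 over 14688 genes. With the replicate block, members called from day 5 to day 10 were 2 higher and 1 lower as without it, all other counts were also the same, and over all genes the count called higher in that comparison went from 571 to 563. A difference under 4-fold in a gene near the limit of detection, such as *Grhl3* from day 10 through CD organoids, could not be resolved at this depth. Where leaving out a library left 1 in a group, that library was assumed to vary like the other groups.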
